A study of Mus musculus with 4 samples.

Results

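The genes described here make coenzyme Q or bind it. They are the 10 entries of the count tables whose symbols are Pdss1, Coq2, Coq3, Coq4, Coq5, Coq6, Coq7, Coq9, Coq10a and Coq10b, out of 23420 listed genes, and each had an entry. Polyadenylated RNA was sequenced in 4 libraries of wild-type C57BL/6J mouse heart, an unmanipulated inbred strain, all of them labelled male and 12 weeks old. The labels call the tissue whole heart, whereas their protocols say that ventricular apexes were frozen. There is 1 group, with no treated animals and no control, so the data allow comparisons between genes within a library and between libraries.

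Coenzyme Q, or ubiquinone, is a lipid that carries electrons in the inner mitochondrial membrane. It takes them from complex I, from succinate dehydrogenase and from several other dehydrogenases, and hands them to complex III. Its long isoprenoid tail comes from the mevalonate pathway and its ring from tyrosine, and a set of COQ proteins on the matrix side of the membrane joins and modifies both parts. The heart, which relies on oxidative metabolism, is rich in it, and inherited defects of these genes cause mitochondrial disease.

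Each library held between 10523709 and 15359296 reads assigned to genes. Levels are given as CPM, counts scaled to a library total of 1000000 gene counts, and, where genes are compared with each other, as CPM per kilobase of the gene's annotated exons. Means are over the 4 libraries with their standard deviation. The labels do not tell whether each library stems from a separate animal. The p-values therefore measure the spread between these libraries, part of which may be technical. Defining genes of heart muscle were abundant: Myh6, Tnnt2, Actc1, Myl2, Ryr2 and Pln summed to between 80167 and 90659 CPM, highest in library 3. The atrial genes Myl7 and Sln summed to at most 0.718 CPM. Fibroblast markers summed to between 812 and 936 CPM over 5 genes, endothelial markers to between 836 and 897 CPM over 5 genes, smooth muscle and pericyte markers to between 514 and 592 CPM over 4 genes, and macrophage markers to between 90.4 and 101 CPM over 4 genes. Markers of fat, fast skeletal muscle, and of lung, thymus and liver summed to at most 3.14, 2.38 and 0.934 CPM, and Sftpc of lung and Alb of liver had no counts. Libraries 2 and 3 went against their label of male: Xist had 5, 1897, 1806 and 19 counts in libraries 1 to 4, and Ddx3y had 341, 0, 1 and 437, with Kdm5d, Eif2s3y and Uty in the same split. By these transcripts, libraries 2 and 3 stem from other animals than libraries 1 and 4. Spread between libraries is therefore also given without libraries 2 and 3, for the genes where it moved most. In RNA from whole tissue, fewer cells of a type and less RNA per cell cannot be told apart.

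Promoter sequence is shown for the genes that mark the extremes of this set: Coq9, the most abundant, and the paralogs Coq10a and Coq10b, which differed most in level. The lines give 250 bases before a transcription start, 5′ to 3′ on the gene's strand, from RefSeq on GRCm38.p6, the assembly that mm10 denotes. Capitals mark matches to any of 8 short motifs named further on. Coq10a has 2 starts in RefSeq, the second of them upstream of the gene as GENCODE M21 draws it. The RefSeq start of Coq9 lies inside the gene as GENCODE M21 draws it, from 94838321. The end of the Coq9 line, with its capitals, therefore overlaps that gene.
Coq9, chr8:94838163-94838412, plus strand: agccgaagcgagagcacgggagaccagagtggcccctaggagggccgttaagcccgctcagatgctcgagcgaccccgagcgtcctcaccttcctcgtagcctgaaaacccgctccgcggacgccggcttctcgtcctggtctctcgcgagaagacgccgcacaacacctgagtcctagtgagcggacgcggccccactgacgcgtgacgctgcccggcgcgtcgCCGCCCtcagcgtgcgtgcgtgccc
Coq10a, start of the GENCODE gene, chr10:128368981-128369230, minus strand: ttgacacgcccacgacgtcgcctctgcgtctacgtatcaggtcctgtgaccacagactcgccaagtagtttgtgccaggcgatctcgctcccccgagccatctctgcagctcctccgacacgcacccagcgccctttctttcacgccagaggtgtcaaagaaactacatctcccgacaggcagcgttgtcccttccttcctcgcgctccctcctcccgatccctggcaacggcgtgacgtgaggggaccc
Coq10a, upstream start, chr10:128370038-128370287, minus strand: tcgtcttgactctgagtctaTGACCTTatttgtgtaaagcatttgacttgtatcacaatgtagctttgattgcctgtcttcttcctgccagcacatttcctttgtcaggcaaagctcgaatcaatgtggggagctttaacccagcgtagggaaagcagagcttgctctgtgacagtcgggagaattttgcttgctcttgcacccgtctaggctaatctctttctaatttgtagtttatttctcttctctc
Coq10b, chr1:55052520-55052769, plus strand: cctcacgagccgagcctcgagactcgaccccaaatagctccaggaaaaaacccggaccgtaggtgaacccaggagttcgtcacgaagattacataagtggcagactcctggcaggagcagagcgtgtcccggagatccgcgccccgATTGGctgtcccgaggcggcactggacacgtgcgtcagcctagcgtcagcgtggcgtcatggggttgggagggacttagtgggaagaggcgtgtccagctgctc

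The 10 genes differed widely in level but little between libraries. Summed, they stood at 963, 905, 884 and 960 CPM in libraries 1 to 4, or 928 ± 39.5 CPM (SD, n = 4). Libraries 1 and 4 were the higher and library 3 the lowest, with 1.09-fold between the extremes. Coq9 and Coq10a together made up 64.4 ± 0.880% of the summed level per kilobase, and Coq9 alone 40.0 ± 1.16% (SD, n = 4). At the other end, Pdss1 made up 0.350 ± 0.0589% and Coq10b 0.201 ± 0.0281%.

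**Figure D1:**
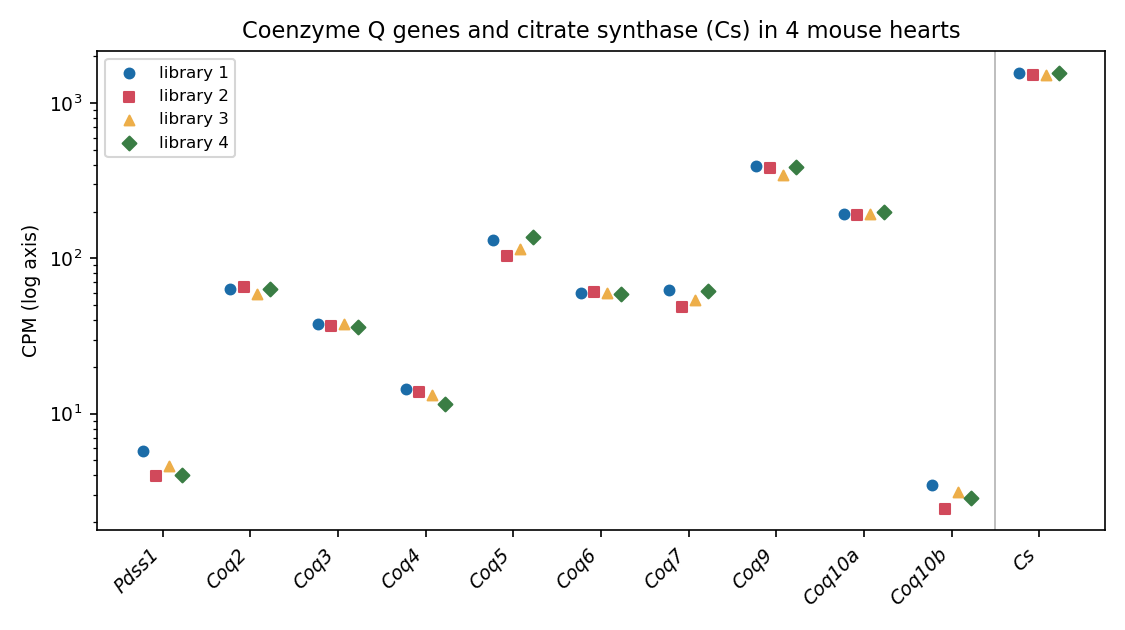
CPM of the 10 coenzyme Q genes and of the mitochondrial enzyme gene Cs in each of the 4 libraries (log axis, 1 point per library). Points of a gene lie close together next to the distance between genes: Coq9 sits between 346 and 392 CPM and Coq10b between 2.44 and 3.47 CPM.

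Synthesis of the tail opens the pathway. Pdss1 encodes a subunit of the polyprenyl diphosphate synthase that builds the isoprenoid chain (chromosome 2, 22895522 to 22940266, plus strand, 11 exons in the longest coding transcript). It had 83, 55, 48 and 62 counts, or 5.76, 3.95, 4.56 and 4.04 CPM, in libraries 1 to 4. Library 1 was the highest, although its exact Poisson limits of 95% (4.59 to 7.14 CPM) overlapped those of library 2 (2.98 to 5.14 CPM). Limits of this kind take in counting error alone and no other spread between libraries. Without molecular tags, copies of 1 molecule are counted as separate reads, so the limits may understate counting error too. The partner subunit Pdss2, which is not among the 10, had 14.0, 12.6, 12.1 and 12.6 CPM. Per kilobase, Pdss1 stood at 0.498 times Pdss2 and was lower in 4 of 4 libraries (log2 ratio -1.01 ± 0.19, SD, n = 4). Pdss1 thus ranked at percentile 20.9 of tested genes per kilobase and Pdss2 at percentile 35.9. Of the exon bases of Pdss1, 9.44% are shared with the opposite-strand entries A130006I12Rik and Abi1. With length taken over exon bases shared with no other gene, Pdss1 stood at 0.547 times Pdss2.

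Coq2 encodes the transferase that attaches the tail to 4-hydroxybenzoate, the ring precursor (chromosome 5, 100654723 to 100675140, minus strand). It had 63.9, 64.9, 59.1 and 63.2 CPM in libraries 1 to 4, with library 3 lowest. In GENCODE M21, 7.63% of its 50-base words also occur in the pseudogene Gm6728, so its count is uncertain by an amount that was not measured.

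The ring is then hydroxylated, decarboxylated and methylated. Coq6, a ring hydroxylase (chromosome 12, 84361657 to 84373796), had 60.2, 60.7, 59.6 and 58.9 CPM and was the steadiest of the 10, with a coefficient of variation (CV) of 1.30%. Coq3, the O-methyltransferase (chromosome 4, 21879673 to 21912162), had 37.5, 36.6, 37.6 and 36.2 CPM, a CV of 1.88%. For both, the libraries lay closer together than counting error alone would place them on average, 3.55% for Coq6 and 4.51% for Coq3.

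Coq5 and Coq7 moved more, and alike. Coq5 is the C-methyltransferase of the ring (chromosome 5, 115279666 to 115296972) and Coq7 the hydroxylase of the penultimate step (chromosome 7, 118509659 to 118533356). Coq5 had 130, 104, 114 and 138 CPM in libraries 1 to 4. Coq7 had 62.5, 48.4, 53.6 and 62.0 CPM. In both, library 2 was lowest, library 3 next, and libraries 1 and 4 high, with a span of 1.33-fold for Coq5 and 1.29-fold for Coq7. These spans exceeded counting error as the Poisson limits give it. The limits of Coq5 reached from 125 to 136 CPM in library 1 but from 98.7 to 109.5 CPM in library 2. Those of Coq7 reached from 58.5 to 66.7 and from 44.8 to 52.2 CPM. The ratio of Coq5 to Coq7, looked at after both were seen, was 4.42, 4.56, 4.52 and 4.72 per kilobase. Its CV of 2.71% was below the 12.6% of Coq5 and the 12.1% of Coq7. Libraries 2 and 3 are those whose sex-linked transcripts went against their label, and the part of that in the low values was not tested.

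Coq9 and Coq4 are the remaining synthesis genes of the 10. Coq9, a lipid-binding partner of Coq7 (chromosome 8, 94838321 to 94854895, plus strand, 9 exons in the longest coding transcript), was the most abundant, with 392, 381, 346 and 385 CPM. Library 3 was its lowest, 1.13-fold under library 1. It ranked at percentile 97.8 of tested genes per kilobase. Unlike Coq5, it did not dip in library 2, and the ratio of Coq7 to Coq9 per kilobase was 0.0757, 0.0604, 0.0736 and 0.0764 in libraries 1 to 4. Coq4, needed to hold the synthesis complex together (chromosome 2, 29787493 to 29797935), had 14.3, 13.8, 13.2 and 11.5 CPM. Of its exon bases 27.1% are shared with Trub2 on the opposite strand, the highest share among the 10. Since the libraries did not keep strand, the counts of Coq4 are uncertain by an amount that was not measured. Trub2 itself had 18.7, 19.5, 15.6 and 19.7 CPM.

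**Figure D2:**
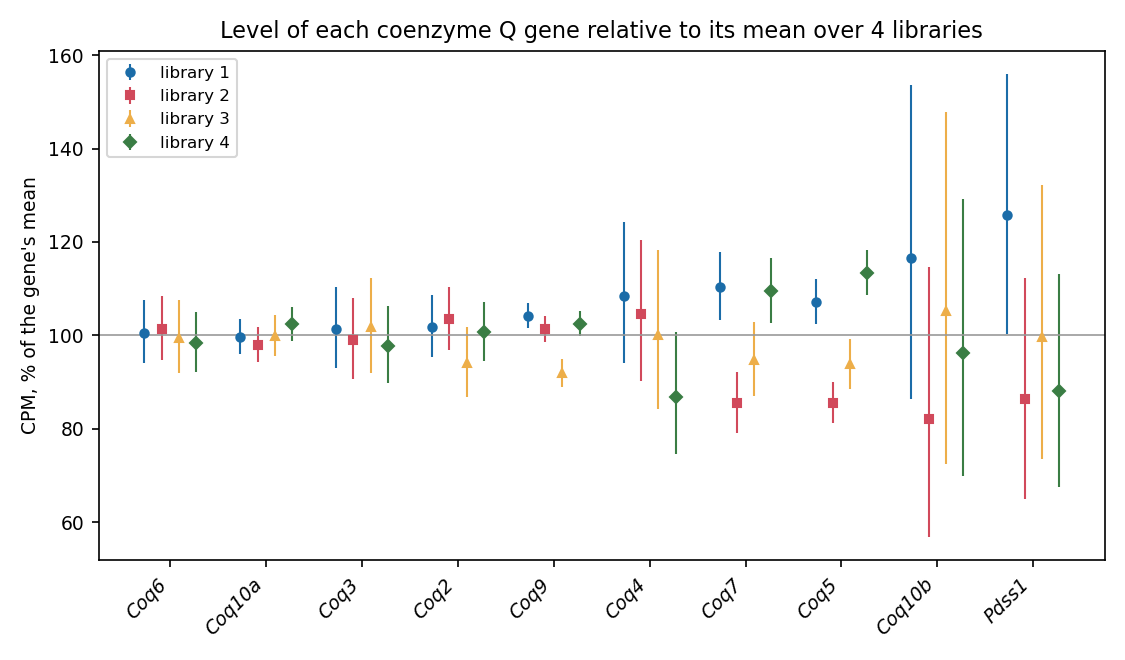
CPM of each gene in each library as a percentage of that gene's mean, with exact Poisson limits of 95% from counting error (genes ordered by CV). Coq6, Coq10a and Coq3 stay near 100, Coq5 and Coq7 are low in libraries 2 and 3, and the wide bars of Coq10b and Pdss1 reflect 33 to 83 counts per library.

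Coq10a and Coq10b encode START-domain proteins that bind coenzyme Q once it is made, and the heart libraries held almost only the first. Coq10a (chromosome 10, 128363100 to 128368997, minus strand) had 2775, 2633, 2031 and 3039 counts, or 193, 189, 193 and 198 CPM, a CV of 1.85%. Coq10b (chromosome 1, 55052770 to 55072702, plus strand) had 50, 34, 33 and 44 counts, or 3.47, 2.44, 3.14 and 2.86 CPM. The 2 sets of values did not come near each other in any library. Per kilobase Coq10a exceeded Coq10b by 121-fold (log2 ratio 6.91 ± 0.21, SD, n = 4; 103- to 143-fold by library), and it was higher in 4 of 4 libraries. On the length of the longest coding transcript the excess was 78.0-fold, and on raw counts 64.6-fold. In GENCODE M21 the exons of Coq10a overlap no other gene, while 7.14% of those of Coq10b are shared with the opposite-strand entry E330011M16Rik. Of the 50-base words of Coq10b, 6.96% occur in other genes, among them the pseudogene Gm4899.

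A like gap separated another paralog pair of the pathway, outside the 10 genes. Coq8a and Coq8b encode atypical kinase-like ATPases of the synthesis complex and are listed under their older symbols Adck3 and Adck4. Coq8a had 646, 672, 564 and 654 CPM and Coq8b 11.9, 10.1, 9.12 and 11.1 CPM. Per kilobase the excess of Coq8a was 63.4-fold (log2 ratio 5.99 ± 0.13, SD, n = 4), in 4 of 4 libraries, and 34.0-fold on the longest coding transcript. At 120 ± 9.01 CPM per kilobase of all annotated exons, Coq8a stood beside Coq9 (123 ± 6.73). That likeness rests on the length used: in CPM Coq8a had 634 ± 47.7 and Coq9 376 ± 20.6.

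**Figure D3:**
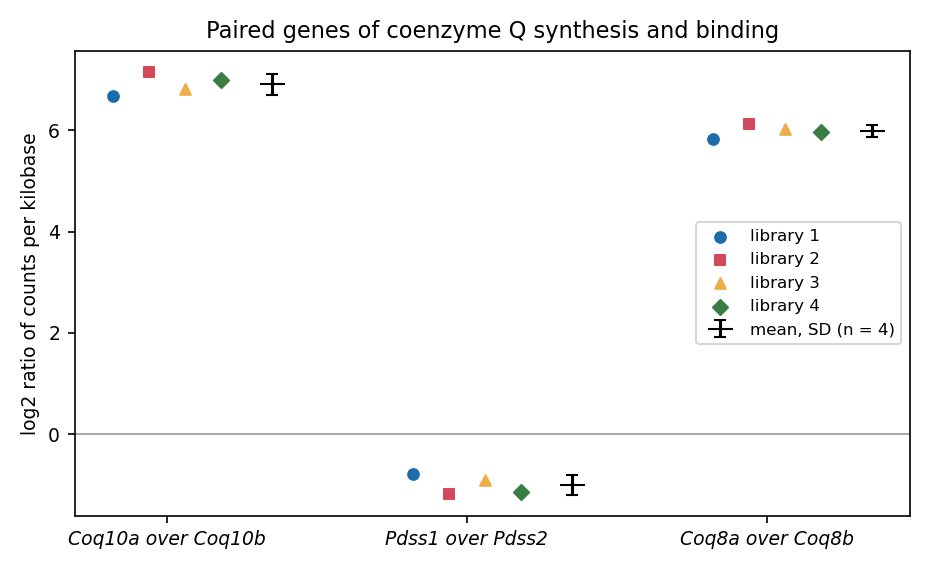
Log2 ratio of counts per kilobase for 3 gene pairs, 1 point per library, with mean and SD (n = 4). Coq10a over Coq10b and Coq8a over Coq8b lie far above 0 in each library and Pdss1 over Pdss2 lies below it.

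In order of level per kilobase the genes ran Coq9 (123 ± 6.73), Coq10a (75.1 ± 1.39), Coq5 (40.1 ± 5.06), Coq2 (23.9 ± 0.975), Coq6 (19.1 ± 0.247), Coq3 (12.3 ± 0.232), Coq7 (8.80 ± 1.06), Coq4 (3.88 ± 0.363), Pdss1 (1.08 ± 0.196) and Coq10b (0.620 ± 0.0904). Each of the 9 neighbouring pairs kept its order in 4 of 4 libraries. The order was itself taken from the means of these libraries, so this agreement is no separate support for it. On this length the smallest step was from Coq2 to Coq6, 1.26-fold, and the widest from Coq4 to Pdss1, 3.61-fold. The neighbours, and the 3 pairs described before, were tested by flipping the signs of the library ratios in all ways (exact, two-sided). In this exact permutation test each of the 12 had p = 0.125, the smallest that 4 libraries allow, also after Benjamini-Hochberg adjustment over the 12, so none could pass 0.05. The place of Coq7 rests on its length. Its annotated exons cover 6434 bases but its longest coding transcript 1215, and on the latter it stood at 46.6 ± 5.62 CPM per kilobase, above Coq2 (36.0 ± 1.47) and Coq3 (14.0 ± 0.263). Coq7 then exceeded Coq4 by 7.01-fold, against 2.26-fold on all annotated exons, while the step from Coq4 to Pdss1 was 2.38-fold.

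**Figure D4:**
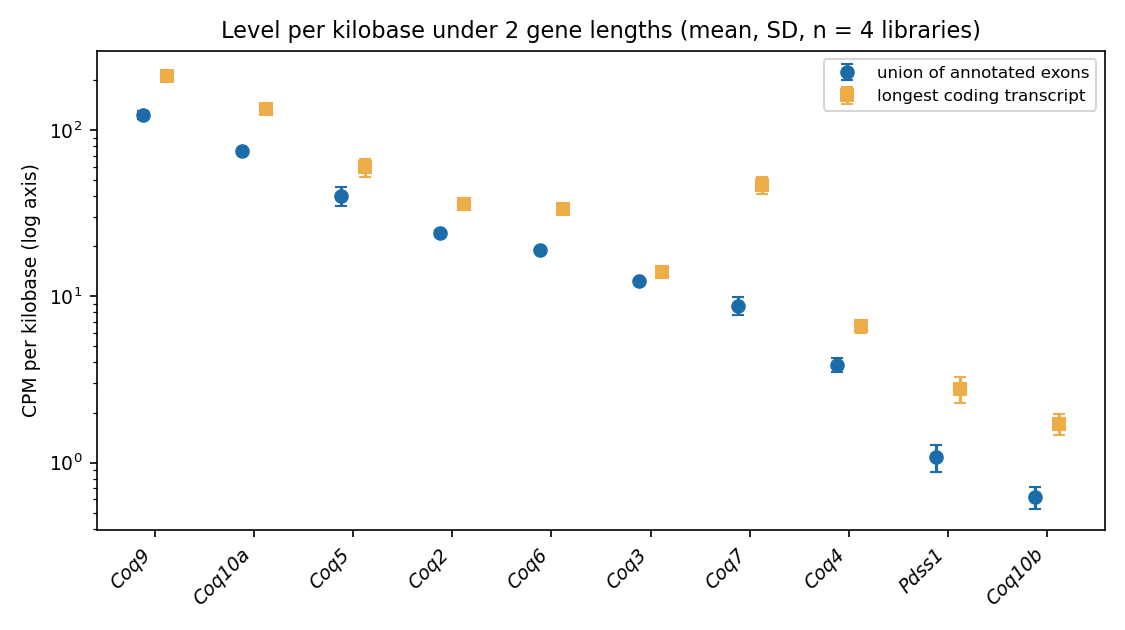
Mean level per kilobase with SD over 4 libraries (log axis), using the union of annotated exons or the longest coding transcript as length. All genes rise with the shorter length, and Coq7 moves from 8.80 to 46.6 while Coq9 stays highest and Coq10b lowest.

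Whether a gene varied more across libraries than others of its abundance was then tested with edgeR's quasi-likelihood fit over the 12358 genes averaging 1 CPM or more. All 10 coenzyme Q genes entered the test, and 0 were called at an adjusted p under 0.05, against 0.445% of all tested genes. With all 4 libraries and these settings, none of the 10 reached an unadjusted p under 0.05, against 6% of tested genes. With limma and as dispersion outliers of DESeq2, 0 of 10 were called as well, against 0.437% and 1.04% of tested genes. Other scalings, filters and subsets of libraries gave 0 calls among the 10 too, or among the 8 that passed a filter of 5 CPM, with a background of 0.0486 to 1.48%. Coq5 came closest, with a spread 3.84 times the trend (adjusted p = 0.878, edgeR), followed by Coq7 at 2.86 times (adjusted p = 0.944, edgeR). Without library 3, Coq5 had an unadjusted p of 0.0280 and an adjusted p of 0.693 in the same edgeR test. With all 4 libraries its unadjusted p was 0.0474 with no scaling factor and 0.0303 with no filter on low counts. In libraries 1 and 4 alone, where just 2 values enter, the spread of Coq5 was 0.818 times the trend and that of Coq7 0.0846 times. Both genes were low in libraries 2 and 3, so a narrower spread without those libraries was to be foreseen. In those libraries the spread of Pdss1 was 4.4 times the trend, against 1.23 times in all 4 (unadjusted p of 0.0433, adjusted p = 0.944, edgeR). The spread of Coq4 there was 3.94 times the trend, against 0.987 times in all 4 (adjusted p = 0.944, edgeR). A p above the threshold does not show that levels were equal.

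The median CV of the 10 genes was 7.42%, beside 9.59% over all tested genes, and 6 of the 10 lay under that general median. These medians are not matched for level, and counting error shrinks as level rises. By mean CPM all of the 10 but Coq4, Pdss1 and Coq10b (percentiles 43.9, 20.5 and 13.6) lay at percentile 70.7 of tested genes or above. The extremes of CV were Coq6 at 1.30% and Pdss1 at 18.2%. For Pdss1 counting error alone gives 13.0%, and for Coq10b 16.0%, which is more than the 14.6% observed. In libraries 1 and 4 alone the median CV was 2.25% for the 10 genes and 4.94% over all tested genes. In a count chosen after the data were seen, libraries 1 and 4 both lay above libraries 2 and 3 for 3 of the 10 genes (Coq5, Coq7 and Coq9), a share near that of all tested genes, 23.7%. The reverse held for 0 of 10, against 15.6% of tested genes. Library 2 was the lowest for Pdss1, Coq5, Coq7, Coq10a and Coq10b, and library 3 for Coq2 and Coq9. How many of all tested genes were lowest in each library was not counted, so this list cannot be set against a general rate.

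**Figure D5:**
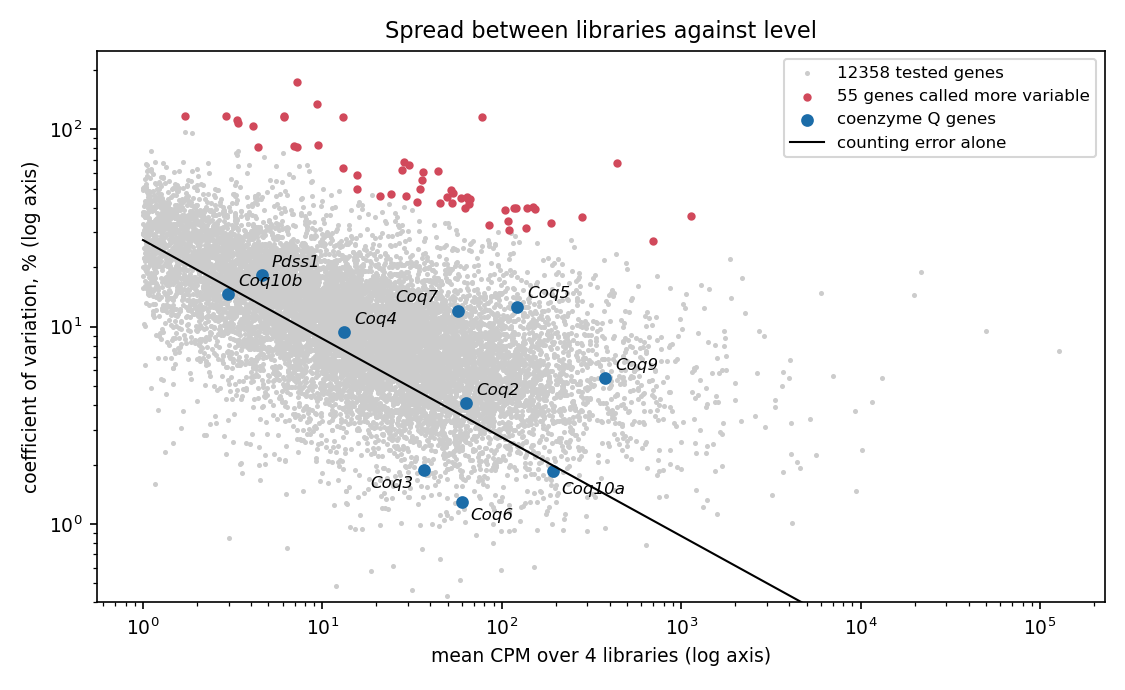
CV over 4 libraries against mean CPM (both log axes) for 12358 tested genes, with the 10 coenzyme Q genes in blue, the 55 genes called more variable in red, and the CV that counting error alone gives as a line. Coq3, Coq6, Coq10a and Coq10b lie under the line, and Coq5 and Coq7 lie above it but among the uncalled genes.

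For Coq5, whose spread was the widest against the trend, the genes with the closest pattern over the 4 libraries were Znrd1 (6.59, 5.03, 5.70 and 7.03 CPM), Sparcl1 (520, 423, 457 and 551 CPM) and BC029214 (11.1, 8.55, 9.60 and 11.6 CPM). Likeness was the root mean square difference of centred log2(CPM + 1) values, which was 0.0071, 0.010 and 0.010 for these genes and had a median of 0.18 over all tested genes. Coq7 was the 53rd closest at 0.034, and 143 genes lay within 0.05, so 4 libraries single out no gene. For Coq9, the most abundant, Itgb5, Ccnt2 and Psmb5 were closest, at 0.0031, 0.0057 and 0.0067, and 952 genes lay within 0.05. The nearest coenzyme Q gene to Coq9 was Coq2, at 0.031.

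Among the rest of the pathway, of 8 other synthesis genes 7 could be tested, and 0 were called (edgeR, 0 also at an unadjusted p under 0.05). They were led per kilobase by Coq8a, by Pptc7, a mitochondrial phosphatase that acts on the pathway (34.3 ± 2.95), and by Stard7, a lipid transfer protein (15.3 ± 1.09). Fdx1l, now Fdx2, a ferredoxin, fell below the level needed for testing at 0.374 ± 0.129 CPM. The 9 genes of the mevalonate route, which supplies the isoprenoid units, summed to 91.0 ± 3.91 CPM. Of these, 0 of 9 were called (edgeR, 0 at an unadjusted p under 0.05). Their median level was 2.91 CPM per kilobase, beside 3.62 over tested genes with a length. Per kilobase the route was led by Hmgcs1 (7.22 ± 0.549), Pmvk (5.78 ± 0.272) and Mvk (3.32 ± 0.313).

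Genes whose products reduce or oxidise coenzyme Q spanned a wide range of levels. The median level was 15.7 CPM per kilobase for the 10 genes, 37.6 for 14 enzymes that reduce coenzyme Q and 335 for 9 subunits of complex III, beside 3.62 over tested genes with a length. Below the median of the 10 genes lay Aifm2 (7.91), Sqrdl (6.31), Prodh (5.13), Dhodh (2.39), Gpd2 (2.26) and Chdh (0.012), all reducing enzymes, and none of the complex III subunits. Among the reducing enzymes the succinate dehydrogenase subunits Sdhb (387 ± 15.1) and Sdha (333 ± 13.1) were among the leading genes. Complex III was led by its small subunits Uqcr11 (740 ± 73.4), Uqcr10 (633 ± 43.3) and Uqcrh (403 ± 10.6). Of 13 tested reducing enzymes and 9 tested complex III genes 0 were called, and 1 of each list had an unadjusted p under 0.05 (edgeR), Nqo1 and Uqcrb. The 10 genes' summed CPM was 0.601 ± 0.0173 times that of citrate synthase, Cs, an enzyme used as a gauge of mitochondrial content (1544 ± 28.5 CPM). It was 0.199 ± 0.00520 times the complex III sum and 0.186 ± 0.00505 times that of the reducing enzymes (SD, n = 4). These ratios varied by 2.61 to 2.88% between libraries, less than the 4.26% of the sum itself.

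The 10 genes are scattered over the genome, with Pdss1 and Coq4 on chromosome 2 and Coq2 and Coq5 on chromosome 5. The starts of Coq9 and Ciapin1, which run in opposite directions, lie 37 bases apart, and those of Coq6 and Fam161b 176 bases apart. With these, 2 of the 10 have an opposite-strand coding gene starting within 1000 bases, beside 10.8% of 20395 protein-coding genes. The starts of Coq4 and Trub2, 1009 bases apart, fell just outside that window. Because strand was not kept, reads from overlaps of opposite-strand genes cannot be assigned to a gene. Of the exon bases, 1.24% are shared in Coq9 and 4.07% in Coq6, but 27.1% in Coq4. Coq10a and Cs run towards each other, with 621 bases between them. Ciapin1 had 63.3, 76.6, 57.9 and 62.1 CPM, highest in library 2, where Coq9 was not.

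RefSeq's promoter table held 11 windows, of 250 bases before to 50 after a start, for 9 of the 10 genes. Coq5 had none. The windows of Coq2 and Coq6 lie inside those genes as GENCODE M21 draws them, as do parts of some others. Both strands were searched for 8 motifs. The palindromic motif of NRF1 occurred in the window of Coq3 alone among these, and in 4.6% of all 32851 windows. AAGGTCA (the half-site of estrogen-related receptors) occurred for Pdss1 and for the upstream start of Coq10a, and in 4.72% of all. CCGGAAG (GABP) occurred for Pdss1 and Coq6, and in 8.86%, and AANATGGCG (YY1) for Coq9, after its start, and in 2.38%. GGGCGG (SP1) was found for Coq3, Coq6 and Coq9, and in 35.7% of all windows. CCAAT (NFY) was found for Coq6, Coq7 and Coq10b, and in 37.4%, while TGACGTCA (CRE) and TATAAA (the box bound by TBP) were found for none, and in 1.79% and 13.6%. None of these motifs was shared by more than 3 of the 9 genes. In the sequences printed, the capitals are a GC box in Coq9, the receptor half-site at the upstream start of Coq10a and a CCAAT box in Coq10b, each read on the reverse strand. The 11 windows of these genes held a median of 22 CpG dinucleotides, against 7 over all windows. A match is a description of letters and shows no binding.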

How the data were processed

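For 4 libraries of 1 group, numbered as in their titles, the authors deposited unscaled read counts by gene symbol. HTSeq, edgeR, DESeq, Bowtie2, TopHat and TopHat2 2.0.10 are listed, with mm10 and with no roles, in the submitters' processing notes. Which annotation was used and how overlaps were counted is not given in the sources used here. Per the labels' protocols, libraries were single-end and not strand-specific. The 5 rows naming no gene held 9.16 ± 0.145% of listed reads (SD, n = 4) and were left out, most of them alignments that were not unique, so genes with close copies are undercounted.

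CPM used each library's gene counts (10523709 to 15359296). A count of 0 allows up to 3 counts, worth 0.195 to 0.285 CPM. Exon lengths came from GENCODE M21 on GRCm38, matched by symbol or RefSeq synonym for 23052 of 23420 genes. Spread was tested with edgeR 4.0.16 in R 4.3.3 (intercept only, TMM factors, trended dispersion, robust prior, F test on 3 and 7.42 degrees of freedom, Benjamini-Hochberg over 12358 genes). On simulated data the procedure recovered 36.2% of genes changed 2-fold in some libraries, 91.8% at 4-fold and 100% at 8-fold. Its calls averaged 162, of which 8 were false, so most changes of 2-fold or less would be missed. Ratios of counts had 0.5 added. Alternatives were other scalings, filters and lengths, a prior that was not robust, limma 3.58.1, DESeq2 1.42.0, each library left out, and libraries 1 and 4 alone.

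The genes, lists and pairs were chosen with earlier results of these data known. Named genes were the 10, the 3 pairs, up to 3 leading genes of each of 4 pathway lists by level per kilobase with any called member, the 3 genes closest in pattern to Coq5 and to Coq9, Cs, cell type markers and sex-linked genes, and 1 gene under this rule is not reported here. Trub2, Ciapin1, Fam161b, Fdx1l, Nqo1, Aifm2, Sqrdl, Prodh, Dhodh, Gpd2, Chdh, Uqcrb and Uqcrq were named after their values were seen, as were genes that overlap the 10.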

Additional observations from a re-analysis of the deposited data

Results flagged for a closer look

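The log2 ratio of Coq2 to Coq6 per kilobase was 0.35, 0.36, 0.25 and 0.36 in libraries 1 to 4. Library 3 lay apart from the others, with a gap to its nearest neighbour of 0.858 of the whole range, above the 95% critical value of Dixon's test for 4 values. Coq2 was at its lowest in library 3, at 59.1 CPM against 63.2 to 64.9 CPM elsewhere. The check ran on 31 quantities and singled out 1, and chance singles out about 5% of groups.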

How the results depend on the processing

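None of the 10 genes was called under any setting run, although 2 of them, Pdss1 and Coq10b, were not tested under a filter of 5 CPM. Over all tested genes the 55 calls became 258 with no filter on low counts, 129 as DESeq2 dispersion outliers, 10 without the robust prior and 6 in libraries 1 and 4 only. They ranged from 39 to 69 with 1 library left out. Among the other pathway genes, 1 was called with no filter and by DESeq2 (Uqcrb) and 1 in libraries 1 and 4 only (Uqcrq). With the ribosomal entry Rn45s left out of the totals, the summed level of the 10 genes was 1063 CPM, since Rn45s held between 11.9 and 14.1% of counts. The median CV was 2.25% in libraries 1 and 4 only, where just 2 values enter. Of the neighbouring pairs in the order, Coq3 over Coq7 reversed, to a log2 ratio of -1.73 on the longest coding transcript and -0.61 with no length, where 7 of the 9 pairs kept their order in 4 of 4 libraries. Coq7 over Coq4 was 7.01-fold and 4.28-fold on those lengths. The other neighbours, the pairs of paralogs and partners and the ratios to Cs, complex III and reducing enzymes kept the direction of their mean under each setting run, but the fold of Coq10a over Coq10b ran from 64.6 to 127 and that of Coq8a over Coq8b from 34.0 to 65.7. No paired analysis was possible because there is 1 group. Depth limits Coq10b (33 to 50 counts) and Pdss1 (48 to 83 counts) most.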

Other observations

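Uqcrb, the subunit of complex III that helps to bind ubiquinone, had 44.9, 25.1, 51.2 and 49.8 CPM per kilobase in libraries 1 to 4, lowest in library 2 (unadjusted p = 0.000969, adjusted p = 0.117, edgeR, over 12358 genes). Nqo1, a reductase of quinones in the cytosol, had 24.6, 18.2, 24.4 and 28.1 CPM per kilobase, again lowest in library 2 (unadjusted p = 0.0264, adjusted p = 0.655, edgeR). Both were singled out after their values were seen, and Coq5 and Coq7 were lowest in the same library. The share of all tested genes lowest in library 2 was not counted.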
